A study of Rattus norvegicus with 4 samples.

Results

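The microRNAs (miRNAs) of the imprinted Dlk1-Dio3 domain were examined in small RNA libraries of rat liver. They were chosen by name: a row counted as a member if it carried no asterisk and 1 of 40 numbers known for this domain. All 40 numbers were found, in 46 of the 680 names. The samples were liver tissue labelled as hepatic fibrosis and liver tissue labelled as normal, with 2 samples under each label. The labels do not give the strain, age or sex of the rats, how the fibrosis was induced, or whether samples came from separate or pooled animals.

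The files of the second fibrosis sample and the second normal sample agreed in all 680 values. They were counted once, as a library of unsettled tissue called the shared library here, since it stands under both labels. The column header of the second normal sample also differs from its title, while those of the other 3 files match theirs. This leaves 3 distinct libraries. The first sample of each label is called the fibrosis library and the normal library here, and each stands alone under its label.

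A miRNA is a short RNA, cut from a hairpin, that pairs with messenger RNAs through its seed (bases 2 to 8) and represses them. In an imprinted domain only the copy from 1 parent is active. At Dlk1-Dio3 the maternal chromosome expresses the long noncoding RNA Meg3 and, on the same strand, a long series of miRNA hairpins, while the paternal chromosome expresses the proteins Dlk1, Rtl1 and Dio3. The miRNAs are known for high levels in embryo, placenta and brain, and the growth regulator Dlk1 is a gene of the fetal liver that falls silent in the adult organ.

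Only 5 of the 46 names had a read in any library, and the sequences of those 5 are shown because they carry all the signal. They were taken from RefSeq (build GRCr8), since the files hold names without sequences or coordinates. The older names miR-411 and miR-541 stand for the arm now called 5p, and miR-127 and miR-329 for 3p. Capitals mark the seed, and each line reads 5′ to 3′.
miR-411-5p: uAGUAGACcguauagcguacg
miR-541-5p: aAGGGAUUcugauguuggucacacu
miR-127-3p: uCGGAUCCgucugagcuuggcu
miR-329-3p: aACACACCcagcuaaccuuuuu
miR-376b-3p: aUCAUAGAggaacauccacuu

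No 2 of these 5 share a seed. Among all mature rat miRNAs in the RefSeq table, the seed of miR-329-3p also occurs in miR-362-3p, which lies on the X chromosome. The seeds of the other 4 occur in no other listed miRNA. The nearest sequence to miR-376b-3p was its neighbour miR-376a-3p, 3 edits away (substitutions, insertions or deletions), the closest pair among the 5. For miR-411-5p, miR-329-3p, miR-127-3p and miR-541-5p the nearest listed miRNA was 7, 8, 9 and 10 edits away. At 7 edits from miR-411-5p, miR-379-5p and miR-758-5p were equally near. Shown for comparison are miR-379-5p for miR-411, and miR-376a-3p and miR-376c-3p for miR-376b. None of these had a read.
miR-379-5p: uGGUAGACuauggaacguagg
miR-376a-3p: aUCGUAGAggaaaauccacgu
miR-376c-3p: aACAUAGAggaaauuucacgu

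The 46 names belong to 42 miRNA genes in RefSeq. All 42 lie on the plus strand of chromosome 6 between Dlk1 and Dio3, so the choice by number matched the domain. Within it, 1 gene lies in the span of Meg3, 5 in the span of Rtl1, 31 in the spans of 2 unnamed long noncoding RNA genes, and 5 in no other listed gene. Mir127 is among the 5 in Rtl1, the gene that miR-127 is known to silence through full complementarity from the opposite strand. Mir411, Mir329 and Mir376b lie in the span of LOC102555254 and Mir541 in that of LOC120103623, both listed as long noncoding RNA genes. In GRCr8 the mature sequences stand at chr6:134328510-134328531 for miR-127-3p, chr6:134544604-134544624 for miR-411-5p, chr6:134547973-134547994 for miR-329-3p, chr6:134558913-134558933 for miR-376b-3p and chr6:134578434-134578458 for miR-541-5p. Of the names seen, miR-411, miR-329, miR-376b-3p and miR-541 thus lie in 1 stretch, from chr6:134544604 to chr6:134578458. Only miR-127 lies apart from it, within Rtl1. A wider spread over the domain therefore rests on the 1 read of miR-127, in the normal library.

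The depth of the libraries sets what could be seen. Values were deposited as reads per 1000000 reads (RPM), and 1 read was worth 0.1439 RPM in the fibrosis library, 0.1414 RPM in the normal library and 0.1573 RPM in the shared library. These steps correspond to totals of 6951148, 7070374 and 6357069 reads, of which 3507179, 3653412 and 3339603 fell on the 680 names. The detection floor, the level that a count of 0 still allows, was taken as 3 reads: 0.432 RPM, 0.424 RPM and 0.472 RPM. Over the 3 libraries together, with 20378591 reads, it was 0.147 RPM. Floors and intervals cover counting error only. As a check of the liver label, the hepatocyte miRNAs miR-122, miR-192 and miR-194 together held 48.6% to 52.7% of the miRNA reads. Most of this share was miR-122. In the fibrosis, normal and shared libraries miR-192 stood at 7826, 8936 and 7492 RPM, and miR-194 at 49.9, 72.1 and 47.2 RPM.

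The miRNA names of the domain had very few reads in all 3 libraries. The 46 names held 2 reads in the fibrosis library, 4 in the normal library and 4 in the shared library. That is 10 reads of the 10500194 on all listed miRNAs. The other transcripts of the domain, such as Meg3 and Dlk1, were not measured. The summed level of all members was 0.288 RPM in the fibrosis library (95% Poisson interval 0.0348 to 1.04), 0.566 RPM in the normal library (0.154 to 1.45) and 0.629 RPM in the shared library (0.171 to 1.61). The intervals of the 3 libraries overlap. In bulk tissue, fewer cells of a type and less RNA per cell cannot be told apart.

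miR-411, a miRNA of the cluster that begins with miR-379, had the most reads. It stood at 0.144 RPM in the fibrosis library (1 read), at 0 in the normal library and at 0.472 RPM in the shared library (3 reads). That last value was the highest of any member in any library, and the only one to reach the floor of 3 reads. Because this library carries both labels, the value cannot be assigned to either tissue.

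miR-541 was second, at 0.144 RPM in the fibrosis library (1 read), 0.283 RPM in the normal library (2 reads) and 0 in the shared library. It was the only member with a read in both libraries that stand under 1 label. Its order there rests on 1 read.

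The remaining 3 were single reads. miR-127 and miR-329, the latter known for its part in the growth of dendrites, each had 1 read in the normal library (0.141 RPM) and none in the other libraries. miR-376b-3p had 1 read in the shared library (0.157 RPM) and none elsewhere. No member was seen in all 3 libraries, 2 were seen in 2 of them and 3 in 1.

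**Figure D1:**
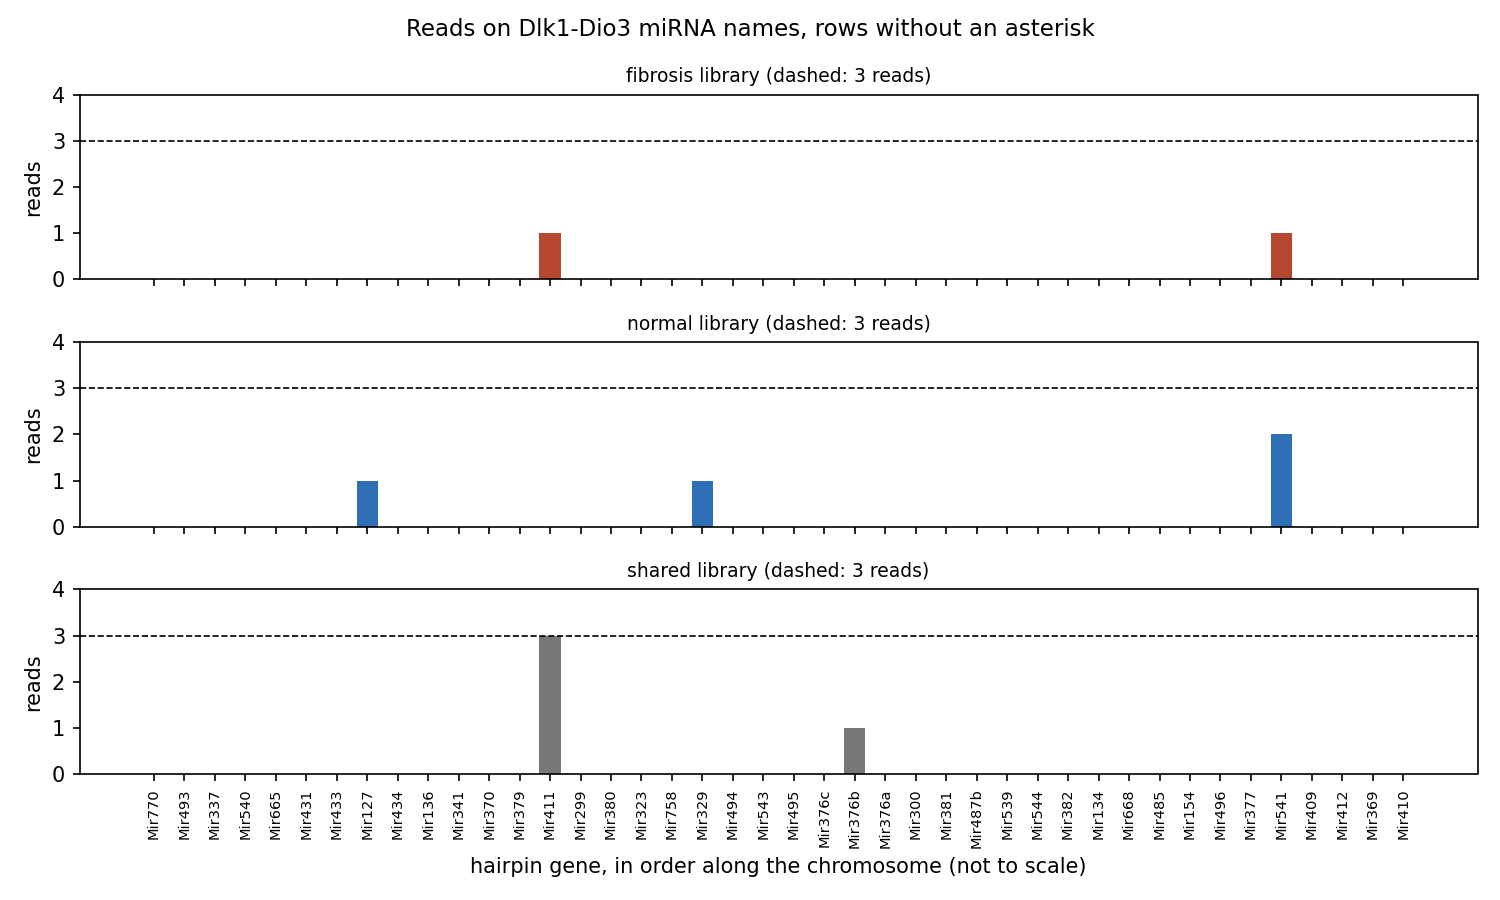
Reads per miRNA gene of the Dlk1-Dio3 domain (y axis, summed over names without an asterisk) in each of the 3 distinct libraries, with genes in their order along the chromosome on the x axis and the floor of 3 reads dashed. Bars stand at 5 genes only, and the 3 reads of Mir411 in the shared library are the tallest.

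The other 41 names were at 0 in each library, and each may have been present at up to the floor. On the Meg3 and Rtl1 side of the domain these were miR-770, miR-493, miR-337, miR-540, miR-665, miR-431, miR-433, miR-434, miR-136, miR-341 and miR-370. They include miR-370, which has been described as a regulator of hepatic lipid genes, and miR-431, miR-433, miR-434 and miR-136, which lie in Rtl1 as miR-127 does. Thus 1 of the 5 miRNA genes within Rtl1 had a read.

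On the far side, the long cluster from miR-379 to miR-410, the names at 0 were miR-379, miR-299, miR-380, miR-323, miR-758, miR-494, miR-543, miR-495, miR-376c, miR-376b-5p, miR-376a, miR-300-5p, miR-300-3p, miR-381, miR-487b, miR-539, miR-544, miR-382, miR-134, miR-668, miR-485, miR-154, miR-496, miR-377, miR-409-5p, miR-409-3p, miR-412, miR-369-5p, miR-369-3p and miR-410. miR-134, the regulator of dendritic spine size, and miR-379, the first of the cluster, are among the best studied of them in neurons. For comparison with the leading liver miRNA, miR-122 stood at least 565164-fold higher than any name at 0 in the fibrosis library, at least 620165-fold higher in the normal library and at least 525372-fold higher in the shared library, taking 3 reads as the level of such a name.

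Where the files name both arms of a hairpin, the second arm added little. Of 33 names with an asterisk and a number of the domain, 32 were at 0 in each library. The exception was miR-485*, with 2 reads in the normal library (0.283 RPM) and none in the other libraries, while miR-485 itself had none. It is the arm now called 3p, shown here since it is the one further gene of the domain with a read.
miR-485-3p: cAUACACGgcucuccucucuuc
A further 5 names of the domain that the numbers leave out, miR-666, miR-667, miR-673, miR-1193-5p and miR-1193-3p, had no read.

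The scarcity stood against a different picture for other miRNAs at the same depth. Of the 392 other names without an asterisk, 45.9% had a read in the fibrosis library, 42.9% in the normal library and 42.1% in the shared library, against 4.35%, 6.52% and 4.35% of the members. Over the 3 libraries these shares were 50.5% of the other names and 10.9% of the members. At least 3 reads were held by 34.9%, 32.9% and 32.7% of the other names, and by 0, 0 and 1 of the 46 members. These shares describe the libraries and were not tested, because names are not replicates and the members share a locus.

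**Figure D2:**
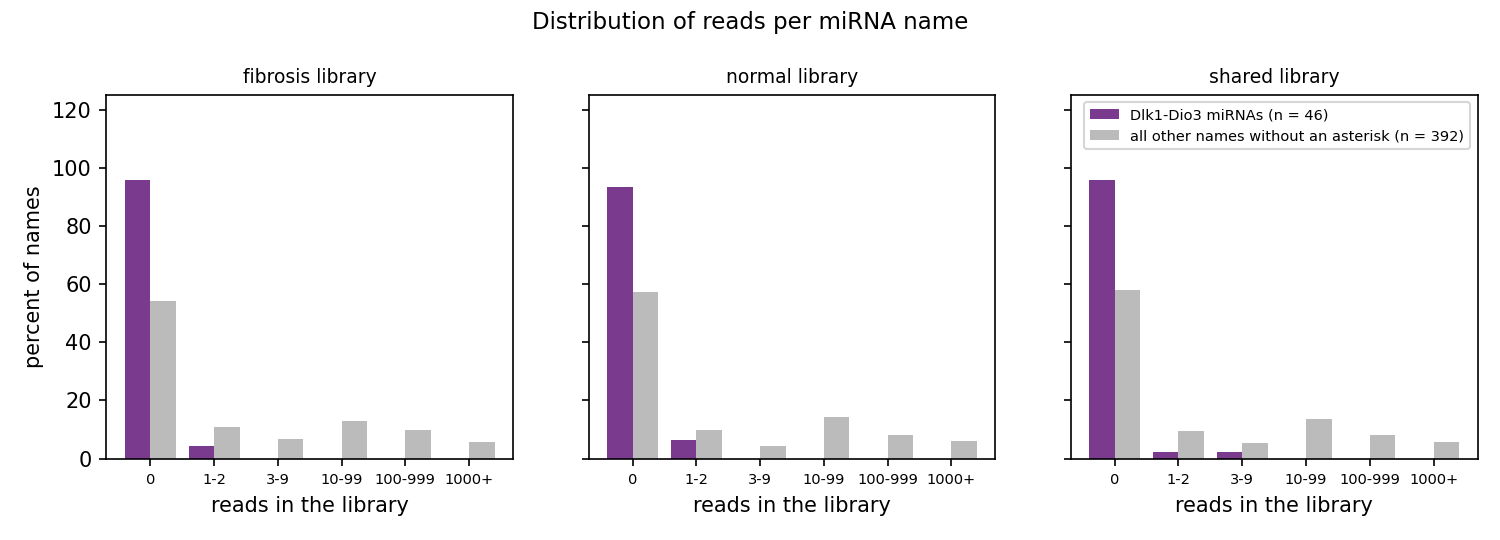
Percent of names (y axis) by number of reads in the library (x axis) for the 46 Dlk1-Dio3 names and the 392 other names without an asterisk, in 1 panel per library. More than 93% of the Dlk1-Dio3 names sit at 0 reads in each panel, while the other names extend to the highest bin.

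Of 5 other groups of clustered miRNAs that were counted, 3 gave many more reads from fewer names. The other two were the embryonic stem cell cluster, with 0 reads, and the cluster within Sfmbt2, with 5, 6 and 1 reads in the fibrosis, normal and shared libraries, against 2, 4 and 4 reads of the members. The cluster of miR-17 and miR-92a with its paralogs, regulators of proliferation, was counted together with miR-92b. This group had 13 of 15 names seen in any library, miR-92b among them. It summed to 153.2 RPM in the fibrosis library, 166 RPM in the normal library and 94.1 RPM in the shared library. The miR-532 cluster had 5 of 6 names seen and sums of 50.1, 34.9 and 51.4 RPM in the same order. The miR-322 and miR-503 cluster had 6 of 6 seen and sums of 22.2, 12.3 and 17.1 RPM. Each of these sums exceeded the upper bound of the Dlk1-Dio3 interval in the same library. Each also rested mostly on 1 name: in the fibrosis library miR-25 at 109.3 RPM, miR-532-5p at 46.5 RPM and miR-503 at 17.4 RPM. In that library 9 of 15, 3 of 6 and 2 of 6 names of these groups held at least 3 reads, against 0 of the 46 members.

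Of 5 miRNAs of other imprinted genes, 1 was seen. miR-335, from the imprinted gene Mest, stood at 2.59 RPM in the fibrosis library, 2.69 RPM in the normal library and 4.56 RPM in the shared library. miR-296, miR-298, miR-483 and miR-675 were at 0 in each. The 18, 19 and 29 reads of miR-335 alone exceeded the 2, 4 and 4 reads of the 46 Dlk1-Dio3 names together.

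Markers of other cell types were counted because the domain is known for expression in brain and muscle. Of 9 neuronal names 4 had a read: miR-128, also made outside the brain, at 25.2 to 26.6 RPM, miR-138 at 0.141 to 2.01 RPM, and miR-9 and miR-129 with at most 1 read a library. miR-124, the defining neuronal miRNA, was at 0 in each library. The 4 muscle names summed to 2.30 RPM in the fibrosis library, 5.37 RPM in the normal library and 6.45 RPM in the shared library, the 6 blood names to 44.7, 35.8 and 61.7 RPM, and the 5 mesenchymal names to 668.7, 466.5 and 1009 RPM. The blood and mesenchymal sums rested mostly on 1 name each. In the same order, miR-142-5p stood at 39.4, 26.4 and 56.0 RPM and miR-199a-3p at 592.0, 350.5 and 903.4 RPM. In the fibrosis library miR-142-3p, miR-144, miR-451, miR-143, miR-145 and miR-199a-5p stood lower than in the normal library, while miR-150, miR-223 and miR-214 stood higher. In these libraries the Dlk1-Dio3 names held 2, 4 and 4 reads. That is too few to compare their order with that of the muscle, blood and mesenchymal sums. A part of any of these cell types in the result was not tested.

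**Figure D3:**
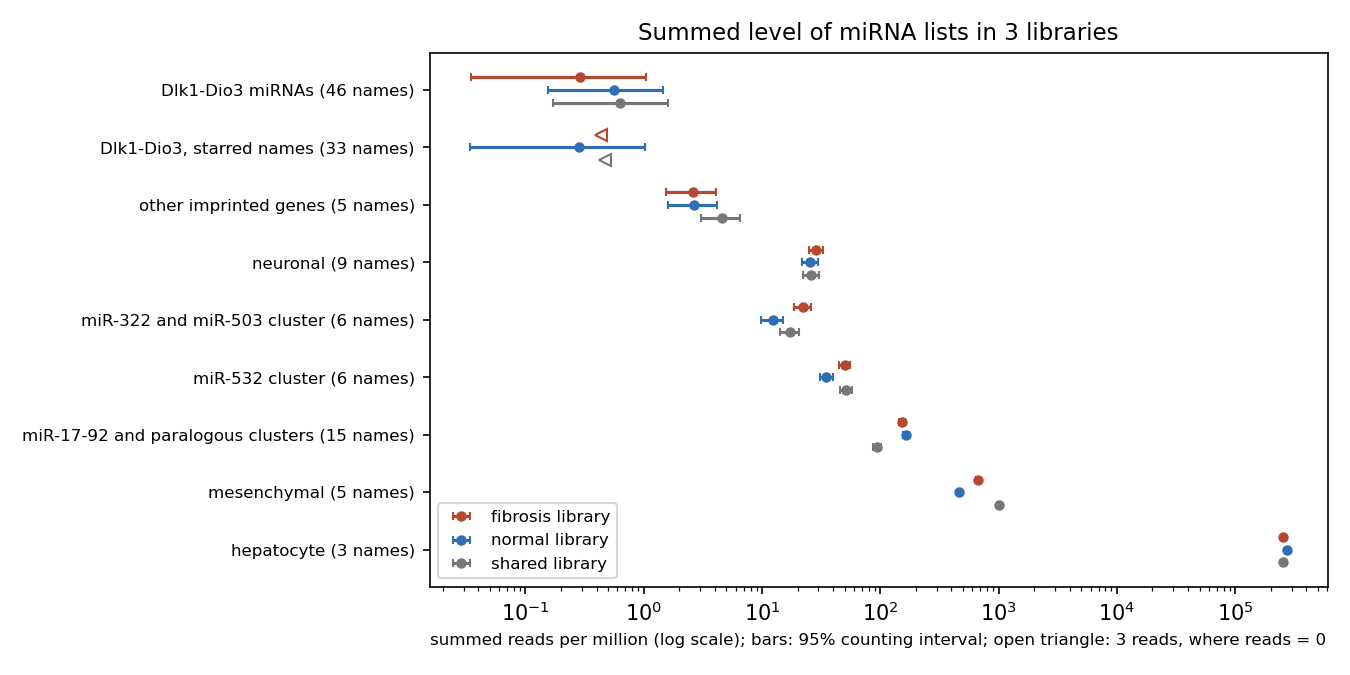
Summed level of 9 lists in RPM (x axis, log scale) in the 3 libraries, with points for the value, bars for the 95% counting interval and open triangles at 3 reads where a list had none. The Dlk1-Dio3 names lie between 0.288 and 0.629 RPM, below the 3 other cluster lists plotted in each library. The embryonic stem cell cluster and the cluster within Sfmbt2, which had no or few reads, were counted but are not plotted.

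The fibrosis library was then set against the normal library, the comparison the study's labels ask for. The summed level of the members was 0.509 times as high in the fibrosis library (2 reads against 4), with a 95% exact binomial interval from 0.0460 to 3.55. A difference between these libraries was not detectable at this depth, and the interval spans both a fall of many fold and a rise. The ratio was 0.254 without miR-411 and 0.810 when the shared library was averaged with the fibrosis library, so single reads and the placing of that library move it. No member reached the 10 reads over both libraries that were required for a ratio of its own, the highest being miR-541 with 3.

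The fit across all miRNAs called no member in either placing of the shared library. Of the 46 members only the 5 with a read entered it, and limma on log2(RPM + 1) called 0 of them with that library counted as fibrosis, against a background of 0% of 294 miRNAs, and 0 with it counted as normal, also against 0%. At an unadjusted p under 0.05 there were 2 members and 36 of 294 miRNAs in the first placing, and 0 members and 27 miRNAs in the second. The 2 were miR-127 and miR-329, each with a fitted log2 difference, fibrosis minus normal, of -0.19 (SE 0.026), and each of these rests on 1 read in the normal library. In the second placing their difference was -0.095 (SE 0.12). In the first placing both libraries on the fibrosis side were at 0 for miR-127 and miR-329, so neither name showed a spread of its own. The SE of 0.026 was therefore set by the variance trend over all miRNAs, and it does not show that a difference of 1 read is precise. After the RPM were turned back into reads, DESeq2 and the quasi-likelihood test of edgeR called 0 members in both placings, with 0 members at an unadjusted p under 0.05. Over all 294 miRNAs edgeR called 0 in both placings, and DESeq2 called 1 in the first and 0 in the second. The lone library of the smaller group is assumed to vary like the others, and the labels do not say that samples are separate animals. The p-values thus rest on the spread between these libraries, pooled over miRNAs, and do not measure that between animals.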

How the data were processed

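Small RNA libraries of total RNA from rat liver were prepared with Illumina's small RNA kit (per the labels' protocols). CASAVA 1.4 and genome build rn5 are named in the submitters' processing notes. Not given in the sources used here: the aligner, the miRNA annotation and the rule for multiply matching reads. The authors deposited 1 value in RPM for each of 680 names per file.

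Dividing the RPM by the smallest step gave whole reads for 100% of values above 0, within 0.01 reads, and thereby each library's total. The test planned for the 3 distinct libraries was limma 3.58.1 under R 4.3.3, fitted to log2(RPM + 1) with trended variances, with the shared library placed in either group. P-values were adjusted by Benjamini-Hochberg over all miRNAs above 0 in at least 1 library. The placing as fibrosis was tested on simulated data, with changes put only into names at 1 RPM or more over the 3 libraries together. No member reached that level, so the simulation does not show whether a change in a member could be called. edgeR 4.0.16 and DESeq2 1.42.0 on recovered reads were alternatives. For the single pair, ratios carry exact (Clopper-Pearson) binomial intervals, and summed levels exact Poisson intervals at 95%.

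Each member seen is named with its values. A ratio was planned only for members with at least 10 reads in the pair. Members and lists were chosen with earlier results of these data known. The other-cluster lists and those of the closing section were added after the files were read. Names were matched by symbol to RefSeq (GRCr8) for 46 of 46 members. Counts and plots used Python 3.11.15, pandas 2.3.3, scipy 1.17.1 and matplotlib 3.10.9.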

Additional observations from a re-analysis of the deposited data

How the results depend on the processing

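With at least 3 reads required, the number of members seen fell from 2 to 0 in the fibrosis library, from 3 to 0 in the normal library and from 2 to 1 in the shared library. Adding names with an asterisk gave 2, 4 and 2, and at the depth of the shallowest library 1.83, 2.79 and 2 would be expected. Leaving out 1 library at a time gave 3 to 5 members seen in any library, with the 3 coming from leaving out the normal library, which alone holds the reads of miR-127 and miR-329. The ratio of the summed levels ranged from 0.254 to 0.810 in the 8 alternatives run. These values lie inside its counting interval of 0.0460 to 3.55, which at 2 against 4 reads is so wide that this is little of a check. With 0 members called in the main fits, each of the 9 alternatives per placing also called 0, including all 4 files as labelled with the replicate number as a block (0 members called) and without it. Over all names, limma without a filter called 1 of 680 in both placings, which was not a member. Whether the numbers pair the samples could not be checked, because the second pair is 1 library. With a mean of at least 1 RPM required no member was left to test, and the 2 fits to all 4 files are the same under both placings. Those 2 fits enter the shared library under both labels. They count 1 library as 2 samples, and the difference within the second pair is fixed at 0. With at most 3 reads of a member in any library, the alternative fits had little means to call a member. Their agreement is therefore not evidence that the members do not change. Leaving out a library from a fit of 3 leaves no residual degrees of freedom, so it was not run. Member ratios under other scalings were not run, because no member had 10 reads.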

Other observations

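Other miRNA clusters known for early development also had few reads. The embryonic stem cell cluster (miR-290 to miR-295) had no read on any of its 8 names, which allows up to 0.147 RPM per name over the 3 libraries together. Of 4 names of the rodent cluster within Sfmbt2, known from placenta, miR-466b had 2, 3 and 1 reads in the fibrosis library, the normal library and the shared library, miR-466c had 3, 3 and 0, and the others none. The 12 reads of these 4 names are close in number to the 10 reads of the 46 Dlk1-Dio3 names. The share of names seen in any library was not: 50% of these 4, against 10.9% of the members and 50.5% of the other names without an asterisk. These lists were chosen after the files were read.

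Among the mature arms of the 42 Dlk1-Dio3 miRNA genes in RefSeq, 77 in all, 73 distinct seeds occur. Only 3 seeds are shared, by miR-381-3p with miR-539-3p, by miR-376b-5p with miR-376c-5p, and by miR-410-5p with miR-494-5p and miR-496-5p. The unstarred names of these hairpins were at 0 in each library, apart from miR-376b-3p.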
